A study of Mus musculus with 4 samples.

Results

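The cells described here are the ductal cells found among dispersed mouse islet cells, chosen from the counts themselves. A cell barcode was a member if it held at least 500 detected genes, at most 20% mitochondrial unique molecular identifiers (UMIs, one per captured RNA molecule), at least 2 UMIs of Krt19, at least 1 UMI of Sox9, no UMI of Ptprc, and less than 10% of its UMIs in the 7 islet hormone genes Ins1, Ins2, Iapp, Gcg, Sst, Ppy and Pyy. Of 16146 cells that passed the filters on genes and mitochondrial UMIs, 727 were members. Because the same counts chose the cells, differences between them and other cells are given as descriptions with no test.

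The study sequenced RNA of single cells from pancreatic islets of 5-week-old mice of the NOD strain, which develops autoimmune diabetes. The labels give 2 samples of genotype Xbp1{beta}-/-, in which tamoxifen induced the deletion of Xbp1 in beta cells, and 2 samples of genotype Xbp1fl/fl, which carry the floxed allele and received tamoxifen too. The sources used here do not name the promoter that drove the recombinase. All islets were picked by hand after enzyme digestion and density separation, cultured overnight and dispersed with accutase, so exocrine cells in these samples are those that stayed with the islets. The counts of all samples stand in a single matrix whose barcodes end in a library number from 1 to 4, and no sample label equals such a number. Libraries could therefore be tied neither to samples nor to genotypes, and each value belongs to a numbered library.

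Pancreatic duct cells line the tubes that carry digestive enzymes away from acinar cells, and they add bicarbonate-rich fluid through the chloride channel Cftr and its partner transporters. Keratins 8, 18, 19 and 7 form their cytoskeleton, and the transcription factor Sox9 helps to maintain them. Under inflammation or injury, duct cells in mice are known to secrete defence proteins such as lipocalin 2, the product of Lcn2, and during development Sox9-positive cells of the duct tree give rise to endocrine cells through Neurog3.

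Ductal cells were common in libraries 1 and 3 and rare in libraries 2 and 4. Library 1 held 478 ductal cells of 3635 (13.1%, 95% interval 12.1 to 14.3%), library 2 held 13 of 5268 (0.247%, 0.132 to 0.422%), library 3 held 229 of 3455 (6.63%, 5.82 to 7.51%) and library 4 held 7 of 3788 (0.185%, 0.0743 to 0.380%). The intervals are exact binomial ones and cover counting error only. Some other non-endocrine classes were likewise larger in libraries 1 and 3: the leukocyte class held 1194, 189, 926 and 34 cells in libraries 1 to 4, the fibroblast class 127, 8, 151 and 6, and the acinar class 26, 0, 10 and 0. The endothelial class, with 140, 111, 143 and 78 cells, differed far less between libraries. The endocrine class held 1120, 4827, 1509 and 3559 cells. The part of tissue composition in these shares was not tested. Median depth in ductal cells was similar, at 17900.5, 19311, 17165 and 13097 UMIs per cell, and 4331, 4813, 4280 and 3653 genes were detected per cell in the median. Summed over cells, the ductal UMIs of libraries 1 to 4 came to 13903933, 251144, 5468334 and 127160, so that 3 UMIs, the limit a count of 0 allows, correspond to 0.216, 11.9, 0.549 and 23.6 counts per 1000000 UMIs (CPM). Values for libraries 2 and 4 therefore rest on few cells. Of the 19987 barcodes, 90 had a sequence that recurred in another library, among them 5 ductal cells, but no ductal cell shared its sequence with another ductal cell.

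Cells next to the thresholds resembled the members in part. The 92 members with exactly 2 Krt19 UMIs had 2747 CPM of Epcam and 9528 CPM of Clu in sum, and the 114 cells left out with 1 Krt19 UMI had 3110 CPM of Epcam and 12475 CPM of Clu. The 38 members with 1 Sox9 UMI had 1383 CPM of Epcam and 77381 CPM of the acinar gene Ctrb1, whereas the 39 cells left out with no Sox9 UMI had 882 CPM of Epcam and 121330 CPM of Ctrb1. In 4 members hormone genes made up 5 to 10% of UMIs, 15 cells were left out with 10 to 20% and 21 with 20% or more, and 5 were left out for a single Ptprc UMI.

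Of the 5 ductal markers, Krt19 and Sox9 are present in every member by the rule. Of the other 3, Clu and Lcn2 were detected in all libraries and Chil4 in libraries 1 and 3. Several defining markers of other lineages were at or near 0: Laptm5, Cd53 and Cd52 of leukocytes reached at most 1.15 CPM in any library, the macrophage genes C1qa and Csf1r at most 0.575 CPM, the mesothelial genes Upk1b and Bnc1 were at 0 in every library although Msln reached 117, 0, 127 and 0 CPM, and the tuft cell genes Pou2f3, Trpm5, Il25 and Alox5 were at 0 in every library. The tuft list still summed to 40.6, 19.9, 39.7 and 15.7 CPM in libraries 1 to 4, nearly all of it Dclk1, at 39.9, 19.9, 39.1 and 15.7 CPM. The macrophage list as a whole summed to 15.7, 7.96, 13.9 and 7.86 CPM in libraries 1 to 4, most of it Cd68, the endothelial list to 18.6, 462, 52.7 and 0 CPM, the fibroblast list to 321, 0, 700.4 and 0 CPM, and the endocrine list to 1834, 15119, 2179 and 23270 CPM. Small subsets of members stood apart. The first consisted of 13 cells, all in library 1, in which 13 acinar marker genes made up 14.0 to 50.9% of UMIs, while the next ductal cell had 1.81%. These 13 cells had a median of 145506 UMIs, against 17026.5 in the 668 ductal cells that met no criterion of another class, and in sum they had 455 CPM of Epcam, 46.5 CPM of Sox9 and 75.4 CPM of Lcn2. Their acinar genes brought the acinar markers of library 1 to 44045 CPM in ductal cells, and to 97.7 CPM without them; library 3 had 148 CPM. Other values of library 1 moved less: the CPM of the 25 leading genes described in the following paragraphs was 1.09 to 1.21 times as high without them. Values of library 1 include these cells unless stated, and results that turn on them are given both ways. The second held 14 cells (11 in library 1 and 3 in library 3) with at least 2 UMIs each of the collagen genes Col1a1 and Col3a1, at a median of 58541 UMIs. In 29 ductal cells (7, 10, 8 and 4 in libraries 1 to 4) hormone genes made up 1% of UMIs or more. The part of cells captured together in these subsets was not tested.

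Krt19, the keratin that marks simple ductal epithelium, stood at 430.5, 303, 539 and 362 CPM in the ductal cells of libraries 1 to 4. Sox9 stood at 549, 896, 639 and 959 CPM. Both were used to choose the cells. Clu, which encodes the secreted chaperone clusterin, had 11899, 14052, 13619 and 13558 CPM, so the 4 libraries lay within a narrow range. Lcn2, whose product starves bacteria of iron by binding siderophores, had 5648, 5391, 4110.2 and 4726 CPM. Summed over cells, Clu and Lcn2 were thus high in all libraries, including those with 13 and 7 ductal cells. In single cells of library 4, however, Lcn2 ran from 0 in 1 of 7 cells to 63653 CPM in the highest. Its median there was 1283 CPM, against 5342 CPM in library 1, so the summed Lcn2 of library 4 rests on few cells. Chil4, a chitinase-like protein gene of mouse epithelia, behaved differently, with 1863 CPM (1840.2 to 1886, exact Poisson interval) in library 1, 410.0 CPM (393 to 427) in library 3 and no UMI in libraries 2 and 4, which allows up to 11.9 and 23.6 CPM. Chil4 lies on chromosome 3 (106201490 to 106219507, minus strand, GRCm38, GENCODE M21) next to its near-identical copy Chil3 (106147554 to 106167564). The sources used here do not say how reads were split between such copies, and single values of both genes are uncertain. Chil3 had 2.73 and 0.366 CPM in ductal cells of libraries 1 and 3, against 199 and 616 CPM in leukocytes.

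To describe which genes set ductal cells apart, the CPM of summed ductal UMIs was divided, within libraries 1 and 3, by the unweighted mean CPM of 5 other classes (endocrine, acinar, endothelial, fibroblast and leukocyte cells), after adding 10 CPM to both. Of 16958 genes measured, 149 (0.879%) were at least 4-fold higher in ductal cells in both libraries and 249 (1.47%) at least 4-fold lower. With 1 CPM added in place of 10, the numbers were 421 and 1155. The median log2 ratio of all genes was -0.02 in library 1 and 0.02 in library 3. Counts of list members given in the following paragraphs are to be read beside these shares, and nothing is tested, since the cells were chosen from the same counts.

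The 25 genes that stood highest in ductal cells were of several kinds, and Ly6d, Chil4, Lcn2, Fxyd3 and Wfdc2 came first. Ly6d, a surface protein of the Ly6 family, had 2375 and 2397 CPM in ductal cells of libraries 1 and 3, against 42.3 and 41.9 CPM in the mean of the other classes, which is 45.6-fold and 46.4-fold. Part of the mean of other classes came from leukocytes, in which Ly6d had 173 and 203 CPM. Lcn2 was 40.3-fold and 78.0-fold higher. The same 25 held the defence genes Wfdc2 and Wfdc18, which encode small whey acidic protein domain proteins, and Pglyrp1, which encodes a peptidoglycan recognition protein. Pglyrp1 had 288 and 207 CPM in ductal cells, against 4.71 and 3.55 CPM in the other classes. Fxyd3, a modulator of the sodium-potassium pump, had 940.2 and 1008 CPM in ductal cells, against 20.03 and 12.7 CPM. Cldn2, a claudin that forms cation- and water-permeable junctions, had 209.9 and 270.1 CPM in ductal cells, against 2.55 and 2.04 CPM. Onecut2 and Ehf, epithelial transcription factors, had 268 and 454 CPM and 306 and 359 CPM in ductal cells, against 6.35 and 6.42 CPM and 16.1 and 15.9 CPM in the other classes. Sprr1a, a cornified envelope precursor, and Sfn, which encodes the epithelial 14-3-3 protein sigma, belonged to the same 25, as did the adhesion gene Epcam, the keratin gene Krt18 and Spp1, which encodes the secreted phosphoprotein osteopontin. Spp1 made up 42525 and 46779 CPM of ductal RNA, against 3149 and 2038 CPM in the other classes.

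**Figure D1:**
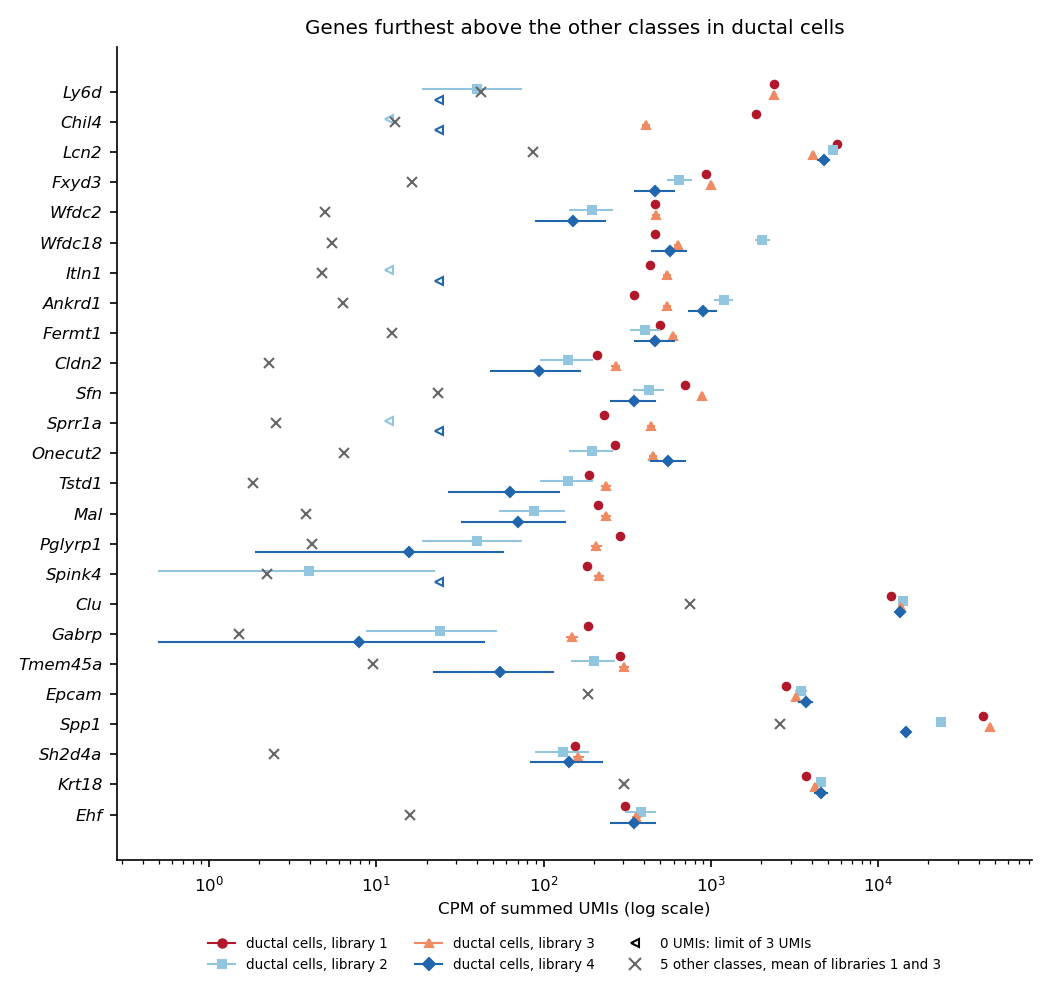
Each row is one of the 25 genes with the highest smaller log2 ratio of ductal cells to 5 other classes in libraries 1 and 3; the x axis gives CPM of summed UMIs on a log scale, coloured points are ductal cells of libraries 1 to 4 with exact 95% Poisson intervals (left ends under 0.5 CPM are drawn at 0.5), open triangles are the level of 3 UMIs where no UMI was found, and crosses are the mean of the other classes over libraries 1 and 3. Clu, Lcn2 and Epcam lie close together in all 4 libraries, while Ly6d, Chil4, Itln1, Sprr1a and Spink4 are far lower or at 0 UMIs in libraries 2 and 4.

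Transcription factors and structural genes of the duct lineage were the list with the largest share of called members: 15 of 20 were at least 4-fold higher and none lower, with a median log2 ratio of 2.73 in library 1 and 3.10 in library 3. The list shares Krt19 and Sox9 with the rule. The adherens junction gene Cdh1 had 342, 593, 390.2 and 527 CPM in ductal cells. Among 8 measured keratins, 4 were called higher (Krt8, Krt17, Krt18 and the rule gene Krt19). Krt7 had log2 ratios of 1.81 and 2.37 and missed the 4-fold limit in library 1. Of 28 tight junction and polarity genes, 5 were higher and none lower: Cldn2, Cldn3, Cldn4, Cldn7 and Lsr, a receptor of junctions where 3 cells meet. Cldn4 had 1542, 1107, 1367 and 1305 CPM in ductal cells of libraries 1 to 4, against 192 and 59.97 CPM in the other classes of libraries 1 and 3. Cldn4 thus lay in a narrow range over the libraries, unlike Cldn2, which was lower in libraries 2 and 4.

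Genes for bicarbonate and fluid secretion were in part at low levels. Of 26 measured, 5 were called higher and 1 lower. Cftr, the chloride and bicarbonate channel of the duct, had 34.5 (31.4 to 37.7), 195 (144 to 258), 51.9 (46.1 to 58.3) and 362 (265 to 483) CPM in ductal cells of libraries 1 to 4. Single cells ran from 0 to 448 CPM in library 2 and from 0 to 575 CPM in library 4. The intervals of libraries 2 and 4 lay above those of libraries 1 and 3, but they cover counting error only, from 13 and 7 cells. Car2, the carbonic anhydrase that supplies bicarbonate, ran the other way, with 167, 31.9, 219.8 and 55.0 CPM. The channels Kcnn4 and Ano1 had 119.7 and 166 CPM and 64.9 and 71.0 CPM in libraries 1 and 3, against 10.6 and 8.08 CPM and 4.80 and 2.69 CPM in the other classes. Slc4a4, the sodium bicarbonate cotransporter of the basolateral side, had 54.6, 199, 90.2 and 78.6 CPM and was 2.88-fold and 4.39-fold higher. Aqp1, a water channel that marks endothelium and, in humans, intercalated duct cells, was the member called lower, with 1.37 and 2.38 CPM in ductal cells, against 67.3 and 98.9 CPM in the other classes. The apical exchanger Slc26a6 had 13 and 3 UMIs in libraries 1 and 3.

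Defence genes included several of the leading genes. Of 29 measured antimicrobial and acute phase genes, 10 were called higher and 1, the myeloid lysozyme gene Lyz2, lower, with a median log2 ratio of 0.84 and 0.57 in libraries 1 and 3. Cp, which encodes the iron oxidase ceruloplasmin, had 521, 1023, 496 and 582 CPM in ductal cells of libraries 1 to 4, against 33.9 and 26.2 CPM in the other classes. Pigr, the receptor that carries secretory immunoglobulins across epithelium, had 134, 79.6, 98.2 and 7.86 CPM, and complement factor B, Cfb, had 565, 67.7, 376 and 15.7 CPM. These values were highest in library 1 for both. Summed over the list, ductal cells had 14326, 9807, 8155 and 7141 CPM, and 13751 CPM in library 1 without the acinar-rich cells. The antibacterial lectin genes Reg3b and Reg3g came from few cells: 1 cell held 67.4% of the 6431 Reg3b UMIs of library 1, and without the 13 acinar-rich cells Reg3b stood at 6.20 CPM, against 463 CPM with them. Of 16 measured mucin and trefoil genes, 2 were higher, the membrane mucin gene Muc1 and the mucin glycosylation enzyme gene Galnt3. The secreted mucin gene Muc5ac had no UMI in ductal cells of any library.

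No gene of the chemokine and cytokine, MHC, interferon or NF-kB lists was called higher. Most of those called lower were in the chemokine and cytokine list and the MHC class II list. In both lists the share called lower was above the 1.47% of all measured genes. The rule leaves out cells with a Ptprc UMI, and the mean of other classes includes leukocytes. The part of this choice in the lower values was not tested. Of 30 measured chemokine and cytokine genes none was called higher and 6 were lower, namely Ccl5 (22.1 and 2.19 CPM in ductal cells of libraries 1 and 3, against 456 and 383 CPM in the other classes), Ccl2, Ccl7, Cxcl12, Il6 and Tgfb1. Of 15 genes of MHC class II presentation 5 were lower, namely Cd74, H2-Aa, H2-Ab1, H2-Eb1 and Ctss; Cd74 had 86.2, 466, 92.9 and 15.7 CPM in ductal cells, against 1053 and 999 CPM in the other classes of libraries 1 and 3. None of 32 interferon genes, 21 genes of MHC class I presentation or 24 proliferation genes was called in either direction. The median log2 ratio of the interferon list was -0.09 in library 1 and -0.10 in library 3, but 0.55 when all other cells were pooled as the comparison, so its direction depends on that choice. The checkpoint ligand gene Cd274, an interferon list member, had 4.17 and 2.38 CPM in ductal cells, against 38.1 and 37.5 CPM. In the NF-kB list, Traf1 was the single member of 30 called lower and none was higher.

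Developmental pathways contributed single genes. Hes1, the main Notch target that holds duct progenitors back from the endocrine fate, was the 1 of 25 Notch genes called higher, with 1708, 581, 2033 and 330.3 CPM in libraries 1 to 4; the vascular ligand gene Dll4 was the 1 called lower. In the list of endocrine progenitor and pancreas transcription factors, 6 of 32 were higher and 6 lower. Those higher included the rule gene Sox9, Onecut1, Onecut2, Gata6 and Hes1. Those lower included Neurod1, Pax6, Isl1, Insm1 and Mafa, factors of mature or forming endocrine cells. The rule leaves out cells rich in hormone UMIs, and the mean of other classes includes endocrine cells. The lower levels of these factors thus follow in part from the choice. Neurog3, the switch gene of endocrine commitment, had no UMI in any of the 727 ductal cells, which allows up to 0.216 CPM in library 1 and 0.549 CPM in library 3. Of 27 YAP and Hippo genes, Ankrd1 and F3 were called higher; Ankrd1, a nuclear ankyrin repeat protein and common reporter of YAP activity, was 21.9-fold and 34.1-fold higher. The cilium list had 1 called gene of 33, Dcdc2a, a microtubule-binding protein gene, at 177, 629, 221 and 582 CPM. Of 24 immediate early genes, 6 were higher (Fos, Fosb, Jun, Egr1, Atf3 and Klf6). Fos had 2006 and 2386 CPM in ductal cells, against 361 and 360.1 CPM in the other classes. Glutathione enzymes accounted for the 3 of 29 antioxidant genes called higher, Gsta3, Gsta4 and Gpx2. Of 31 basement membrane and adhesion genes, 4 were higher (the integrin genes Itgb6 and Itga2, Anxa3 and Cd24a) and 2 lower (the collagen IV genes Col4a1 and Col4a2).

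Xbp1, the gene deleted in beta cells of the study, was present in ductal cells at 232 (224 to 240), 127 (87.2 to 180), 241 (228 to 255) and 110 (60.2 to 185) CPM in libraries 1 to 4. In libraries 1 and 3 this was 1.54-fold and 1.85-fold above the mean of the other classes, and no such difference was called. Of 35 measured genes of the unfolded protein response and ER folding, Atf3 was the 1 called higher and none was lower, with a median log2 ratio over the list of 0.02 in library 1 and 0.15 in library 3. The labelled deletion is in beta cells, and these counts do not show which part of Xbp1 a UMI came from.

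**Figure D2:**
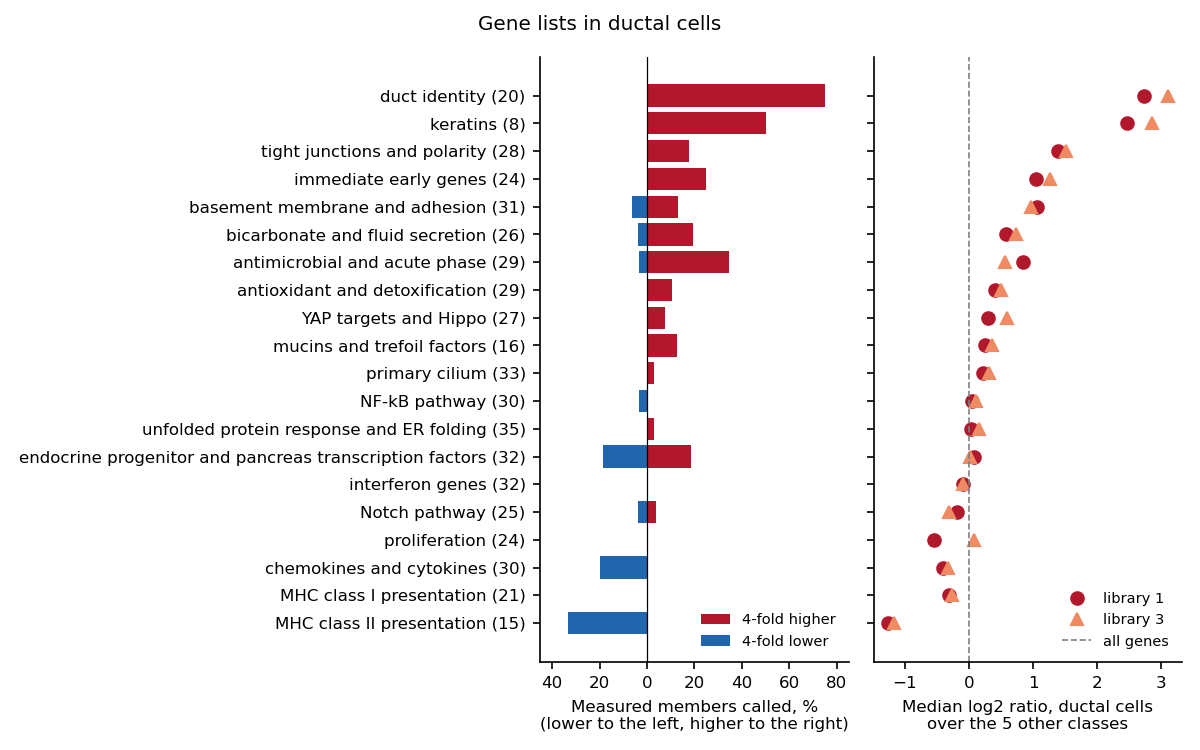
For 20 gene lists (rows, with the number of measured members in brackets) the left panel gives the share of measured members at least 4-fold higher (red, right) or lower (blue, left) in ductal cells in both libraries 1 and 3, and the right panel the median log2 ratio of ductal cells over the 5 other classes in each of these libraries, with the median of all genes as a dashed line. Duct identity and keratin genes have medians above 2 in both libraries, and MHC class II genes the lowest.

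Set against acinar cells alone, the other exocrine class, 2025 of 11549 measured genes (17.5%) were at least 4-fold higher in ductal cells in libraries 1 and 3, and 41 (0.355%) at least 4-fold lower. The acinar class held 26 and 10 cells, and its own marker genes made up 292543 and 418381 CPM of it. S100a6, a calcium-binding protein gene, had 3607 and 4908 CPM in ductal cells, against 8.91 and 3.71 CPM in acinar cells. Sox9 had 549 and 639 CPM, against 0.810 and 0 CPM, but it was used to choose the ductal cells, so its difference follows in part from the rule. The colipase gene Clps had 1473 and 2.19 CPM in ductal cells of libraries 1 and 3, against 21623 and 38968 CPM in acinar cells. Library 1 is the one that holds the 13 acinar-rich ductal cells, and library 3 holds none.

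Expression differed between the few ductal cells of libraries 2 and 4 and the many of libraries 1 and 3. Of the 25 leading genes, 14 had intervals in both libraries 2 and 4 that lay wholly below those in libraries 1 and 3, and 1, Ankrd1, had intervals wholly above. These 25 were picked by their ratios in libraries 1 and 3, at 100 CPM or more there, which favours lower values in libraries 2 and 4. The share of all genes with such intervals was not counted, so the 14 cannot be set against it. Ly6d had 2375 (2349 to 2401), 39.8 (19.1 to 73.2), 2397 (2356 to 2438) and 0 CPM in libraries 1 to 4, where the 0 of library 4 allows up to 23.6 CPM. Spp1 had 42525, 23791, 46779 and 14604 CPM. Spink4, Sprr1a, Itln1, Gabrp and Mal were among the 14 as well. Ankrd1 had 346, 1195, 547 and 897 CPM, and Krt17, a keratin of basal and stressed epithelia, had 113 (107 to 119), 816 (708 to 936), 102 (93.4 to 110) and 1360.5 (1165 to 1579) CPM. Interferon genes summed to 4088, 824, 3026 and 346 CPM, and to 4889.6 CPM in library 1 without the acinar-rich cells. The intervals cover counting error in these cells and not the spread between cells or variation between animals, and no test between libraries was possible. In the 7 cells of library 4, Krt17 ran from 0 to 7139 CPM. Hormone RNA was also higher in libraries 2 and 4, with a median of 0.0949, 1.67, 0.120 and 1.09% of UMIs per ductal cell in libraries 1 to 4, and its part in these differences was not tested.

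Between libraries 1 and 3, which held most ductal cells, 56 genes (0.33%) were at least 2-fold higher in library 1 and 9 (0.0531%) at least 2-fold lower. Those higher in library 1 included many digestive enzyme genes: Try5 had 13177 CPM in library 1 and 24.5 CPM in library 3, but 17.0 CPM in library 1 without the 13 acinar-rich cells. Trypsin family genes are near-identical, so single members are uncertain. Without those cells, 20 genes (0.118%) were higher in library 1 and 6 (0.0354%) lower. Chil4 stayed among the higher ones, with 2262 CPM in library 1 and 410.0 CPM in library 3. Il11 and Ccl2, a cytokine and a monocyte chemokine, had 193 and 223 CPM in library 1, against 26.5 and 33.5 CPM in library 3. Both were concentrated in few cells: 2 cells held at least 50% of the UMIs of each in library 1, and without the cells meeting the criteria of other classes 8 genes were higher in library 1. Genes lower in library 1 included the smooth muscle gene Tagln (53.6 CPM in library 1 without acinar-rich cells and 159.8 CPM in library 3). The part of the collagen-positive cells (11 in library 1 and 3 in library 3) in these Tagln values was not tested.

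Interferon genes and genes of MHC class I presentation were mostly higher in library 1 than in library 3. Without the acinar-rich cells, 31 of 32 interferon genes had a higher CPM in library 1 than in library 3, with a median log2 ratio of 0.49, and so did 21 of 21 genes of MHC class I presentation, with a median of 0.42; of all 16958 genes, 7541 did, with a median of 0.00. With all cells the numbers were 29 of 32, 19 of 21 and 4336 of 16958. Genes of MHC class II presentation did not share this: 4 of 15 had a higher CPM in library 1 without the acinar-rich cells, with a median of -0.04. The interferon genes that exceeded 2-fold were 3, the antiviral genes Rsad2, Ifit1 and Ifit3. Ifit3 had 481 CPM in library 1 without acinar-rich cells and 219 CPM in library 3, and Isg15, a ubiquitin-like modifier, had 636 and 315 CPM. Outside the ductal cells, Isg15 had 49.1 and 17.0 CPM in endocrine cells of libraries 1 and 3, 941 and 443 CPM in endothelial cells, 859 and 639 CPM in fibroblasts and 723 and 417 CPM in leukocytes. Isg15 was thus higher in library 1 in each of these 4 classes too. H2-D1 and H2-K1, the classical class I heavy chain genes, had log2 ratios of 0.76 and 0.66 between ductal cells of libraries 1 and 3 without the acinar-rich cells.

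The upstream sequences of Ifit1 and Ifit3 are shown because both genes were more than 2-fold higher in ductal cells of library 1 without the acinar-rich cells. Each line gives the 250 bases before the start site, from RefSeq on GRCm38.p6, 5′ to 3′ on the gene's strand, with the core of the interferon-stimulated response element in capitals, which is TTTC, any 2 bases and TTTC again. The window of Ifit1 is chr19:34640639-34640888 and that of Ifit3 chr19:34583279-34583528, both on the plus strand.
Ifit1: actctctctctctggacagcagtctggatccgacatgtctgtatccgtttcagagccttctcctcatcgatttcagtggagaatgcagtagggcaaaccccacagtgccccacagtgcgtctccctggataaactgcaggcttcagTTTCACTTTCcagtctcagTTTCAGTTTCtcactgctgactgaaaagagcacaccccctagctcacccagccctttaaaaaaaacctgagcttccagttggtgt
Ifit3: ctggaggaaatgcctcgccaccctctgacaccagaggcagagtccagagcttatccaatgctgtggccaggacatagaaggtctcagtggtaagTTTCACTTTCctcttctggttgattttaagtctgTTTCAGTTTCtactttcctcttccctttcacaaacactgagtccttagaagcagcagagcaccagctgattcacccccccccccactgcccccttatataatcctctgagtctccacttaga
The first core begins 104 bases before the start in Ifit1 and 156 in Ifit3, and the second 85 and 122 bases before it. Both strands were searched, and of 32851 promoters of this length 2.98% held the core at least once and 0.18% at least 2 times. Isg15 had 3 copies. A match describes the letters of the window and shows no binding.

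**Figure D3:**
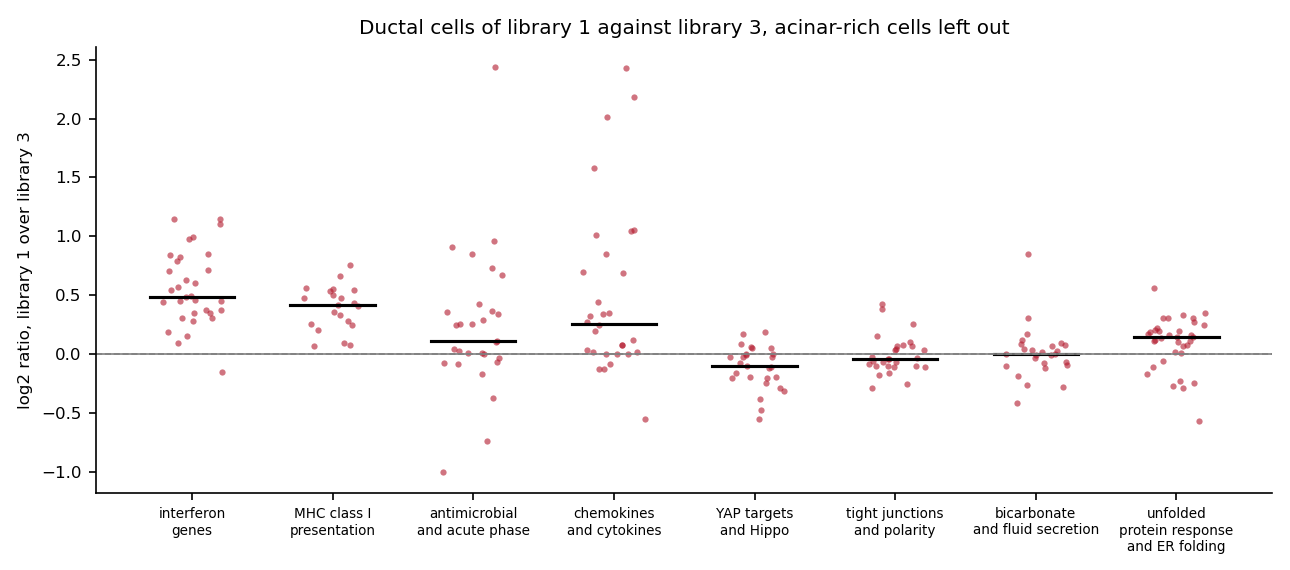
Each point is a gene of the list named on the x axis; the y axis gives the log2 ratio of ductal CPM in library 1 over library 3, with 10 CPM added, after leaving out the 13 acinar-rich cells, black bars are list medians, and the grey lines mark 0 and the median of all genes, which coincide. Interferon genes (median 0.49) and MHC class I genes (median 0.42) lie almost wholly above 0, and YAP and Hippo genes lie mostly below it, with 7 of 27 above 0 and a median of -0.10.

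Within a library, ductal cells were far from uniform. After every cell was thinned to 3000 UMIs, Clu was detected in all 478 and 229 ductal cells of libraries 1 and 3, Lcn2 in 91.6% (88.8 to 94.0%) and 86.5% (81.3 to 90.6%), and Spp1 in 94.8 and 93.4%. No ductal cell had fewer than 3000 UMIs. Ly6d was detected in 45.2% (40.7 to 49.8%) and 47.2% (40.6 to 53.8%), Chil4 in 30.3% (26.2 to 34.7%) and 14.8% (10.5 to 20.1%), and Ankrd1 in 36.4 and 33.2%. Before thinning, these shares were 55.9 and 56.3% for Ly6d, 39.1 and 21.8% for Chil4 and 56.1 and 49.8% for Ankrd1. Leukocytes were taken as a class for comparison, although neutrophils make Lcn2 and B lineage cells Ly6d in mice. They had Lcn2 in 5.20 and 2.56% and Chil4 in 1.13 and 0% of cells at the same depth of 3000 UMIs, from median depths of 7559.5 and 7784 UMIs, against 17900.5 and 17165 UMIs in ductal cells. Clu was found in 15.3 and 12.4%, Spp1 in 32.3 and 23.3%, Ly6d in 24.1 and 16.2% and Ankrd1 in 1.51 and 0.61% of leukocytes. Ductal shares of all 6 genes lay above those of leukocytes in both libraries. All 6 are among the leading genes, which were picked against a mean that includes leukocytes, so this follows in part from the choice. Endocrine cells at 3000 UMIs had Spp1 in 68.0 and 59.4%, Clu in 37.2 and 34.5% and Lcn2 in 4.36 and 1.24%. They had Ly6d in 1.58 and 0.48%, Chil4 in 0.74 and 0% and Ankrd1 in 0.46 and 0.34%.

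Chil4 and Ly6d were often found in the same cells, and Ankrd1 was found more often in cells without Ly6d than in cells with it. Ly6d was found in 82.8% of the 145 ductal cells with Chil4 in library 1, against 28.8% of the 333 without it, and in 30 of 34 cells, against 78 of 195, in library 3. Ankrd1 was found in 18.1% of the 216 cells with Ly6d in library 1, against 51.5% of the 262 without it, and in 12.0% of 108 cells, against 52.1% of 121, in library 3. The pattern was thus alike in both libraries, as a description of cells that share their library. In single cells, Ly6d ran from 0 in 211 of 478 cells of library 1 to 30437 CPM, and Chil4 from 0 in 291 cells to 40533 CPM.

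Itln1, an intestinal lectin that binds microbial sugars, ranked among the 25 leading genes because of very few cells. It had 431 and 547 CPM in libraries 1 and 3, but 459 of 478 and 222 of 229 cells had no UMI, 2 cells held at least 50% of its UMIs in library 1, and 1 cell held 97.0% in library 3. In 7 ductal cells (6 in library 1 and 1 in library 3, picked after their values were seen) Itln1 made up 1.31 to 7.98% of all UMIs, while the next cell had 0.445%. These 7 cells held 94.7% of the ductal Itln1 UMIs. They had ductal levels of Krt19 (433 CPM in these cells and 459 CPM in the other ductal cells), Sox9 (534 and 581 CPM) and Epcam (3740.0 and 2950.0 CPM). After Itln1, the genes furthest above the other ductal cells were led by Agt, the angiotensinogen gene, with 433 CPM in these 7 cells, against 5.93 CPM in the others, then 2310057J18Rik. Further down the same ranking, Muc6, a gel-forming mucin of glands, had 269 CPM, against 3.89 CPM in the other ductal cells, Agr2, a disulfide isomerase needed for mucin folding, had 100.4 CPM, against 0.204 CPM, Olfm4 had 254 CPM, against 14.1 CPM, and the scavenger receptor gene Dmbt1 had 3360.0 CPM, against 412 CPM. The counts behind Muc6 and Agr2 are 51 and 19 UMIs. Xbp1 had 803 CPM in these cells, against 227 CPM in the others. The mucin and goblet cell genes Muc2, Muc5b and Tff3 had no UMI in the 7 cells, and the goblet cell regulator Spdef had 2 UMIs. Other leading genes were spread widely: at least 50% of the Lcn2 UMIs of library 1 came from 73 cells and of the Epcam UMIs from 114 cells, but for Sprr1a it took 9 cells and for Chil4 20 cells.

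**Figure D4:**
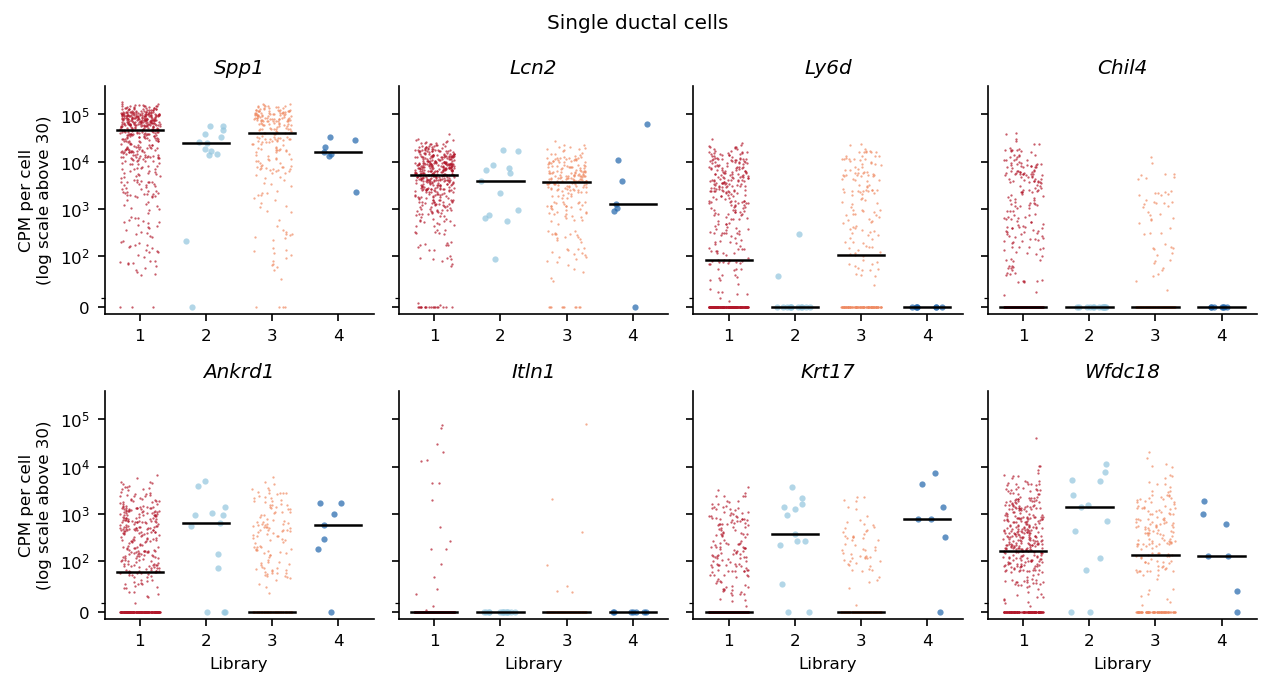
Each dot is a ductal cell, placed by library (x axis) and CPM of the named gene (y axis, linear up to 30 CPM and logarithmic above), with the median as a black bar. Spp1 and Lcn2 are high in most cells, Ly6d and Chil4 are spread from 0 up to 30437 and 40533 CPM, Itln1 is above 0 in 19 cells of library 1 and 7 of library 3, and Krt17 has medians above 0 in libraries 2 and 4 and at 0 in libraries 1 and 3.

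Grouping the 727 cells by their expression gave 7 sub-clusters, numbered from 0, at the chosen resolution and 13 at a finer one, so their number is a matter of setting; they carry no cell type name. Their leading genes defined them and are given as descriptions. Sub-cluster 1, the largest with 235 cells (146 in library 1 and 89 in library 3), had 94595 CPM of Spp1, against 25851 CPM in the other ductal cells, 5795 CPM of Ly6d, against 1161 CPM, 438 CPM of Car2, against 90.8 CPM, and 498 CPM of Cldn2, against 132 CPM. Spp1 in this sub-cluster was as high in library 3 (95814 CPM) as in library 1 (93857 CPM). Sub-cluster 2 (90 cells, of which 77 were in library 1, 12 in library 3 and 1 in library 4) shared high Spp1, Ly6d and Chil4 and also had 1097 CPM of Ifit3, 1176 CPM of Isg15 and 465 CPM of Pigr. Interferon genes summed to 9001 CPM there, and to between 705 and 4550 CPM in the other 6 sub-clusters. Gcg, the glucagon gene, reached 3473 CPM in sub-cluster 2, against 167 CPM in the other ductal cells; it had 1578 CPM in its cells of library 1 and 13292 CPM in its 12 cells of library 3. Sub-cluster 2 made up 16.1% of the ductal cells of library 1 and 5.24% of those of library 3.

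Sub-cluster 0 held most ductal cells of the ductal-poor libraries. Of its 97 cells, 48 were in library 1, 12 in library 2, 31 in library 3 and 6 in library 4, so it took 92.3% of the ductal cells of library 2 and 85.7% of those of library 4, against 10.0% in library 1 and 13.5% in library 3. Krt17 stood at 678 CPM there, against 64.4 CPM in the other ductal cells, Tgfb2, a growth factor gene, at 194 CPM, against 32.0 CPM, and Il1rn, which encodes the interleukin 1 receptor antagonist, at 491 CPM, against 95.5 CPM. Rgs5, known as a pericyte gene, had 567 CPM, against 47.9 CPM; summed over whole libraries, Rgs5 had 63.2, 1218, 129 and 755 CPM in ductal cells, while the pericyte genes Acta2, Cspg4, Pdgfrb and Myh11 reached at most 33.3 CPM in any library. Cftr (114 CPM) and Sox9 (1072 CPM) were highest in this sub-cluster of the 7. Within it, Krt17 had 796 CPM in library 1 and 287 CPM in library 3, and Ly6d had 135 and 848 CPM.

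The remaining sub-clusters were smaller or mixed. Sub-cluster 4 (62 cells, 26 in library 1 and 36 in library 3) had 2134 CPM of Wfdc18, against 450 CPM in the other ductal cells, 246 CPM of the bicarbonate cotransporter gene Slc4a4, against 57.1 CPM, and 131 CPM of Slc2a2, the low-affinity glucose transporter gene better known from beta cells, against 14.6 CPM, with interferon genes at 705 CPM in sum. Krt19 was at 900.1 CPM there. Sub-cluster 3 (119 cells) was led by the neutrophil chemokine genes Cxcl5 (165 CPM, against 25.4 CPM) and Cxcl2 (187 CPM, against 86.1 CPM) and the antiprotease gene Slpi (244 CPM, against 116 CPM). These levels came from library 1, where the sub-cluster had 204 CPM of Cxcl5, 231 CPM of Cxcl2 and 278 CPM of Slpi. In its 24 cells of library 3 it had 9.72 CPM of Cxcl5, 9.72 CPM of Cxcl2 and 112 CPM of Slpi. These were below the values of the other ductal cells pooled over libraries, and were not compared with the other ductal cells of library 3. Sub-cluster 6 consisted of the 14 collagen-positive cells, with 2494 CPM of Col1a1, against 1.06 CPM, and 2759 CPM of Ccl2, against 17.2 CPM. The proliferation genes Mki67 and Top2a had 98.0 and 172 CPM in it, and at most 4.09 and 8.51 CPM in the others; in its 11 cells of library 1 alone they had 41.9 and 74.2 CPM.

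Sub-cluster 5 (110 cells, median 32463 UMIs) held all 13 acinar-rich cells. Its other 97 cells were in sum low in Spp1 (3385 CPM) and Ly6d (13.2 CPM) and high in F3, Sprr1a, Ccnd1 and Ankrd1. F3, which encodes tissue factor, the starter of coagulation, had 1531 CPM, against 275 CPM in the other ductal cells, Sprr1a had 1225 CPM, against 102 CPM, and Ccnd1, the G1 cyclin gene, had 486 CPM, against 115 CPM. Ankrd1 had 1105 CPM in these 97 cells. The upstream sequences of Ankrd1, F3 and Sprr1a are shown because they were together high in these 97 cells. Low Ly6d alone did not go with all 3 genes. Sub-cluster 0 had 359 CPM of Ly6d and 964 CPM of Ankrd1, but 4.98 CPM of Sprr1a. Capitals mark TGANTCA, the AP-1 site, in F3 and Sprr1a, and GGAATG, the TEAD site, in Ankrd1; each line gives 250 bases before the start, from RefSeq on GRCm38.p6, 5′ to 3′ on the gene's strand. The windows are chr19:36119845-36120094 on the minus strand for Ankrd1, chr3:121723287-121723536 on the plus strand for F3 and chr3:92485882-92486131 on the minus strand for Sprr1a.
Ankrd1: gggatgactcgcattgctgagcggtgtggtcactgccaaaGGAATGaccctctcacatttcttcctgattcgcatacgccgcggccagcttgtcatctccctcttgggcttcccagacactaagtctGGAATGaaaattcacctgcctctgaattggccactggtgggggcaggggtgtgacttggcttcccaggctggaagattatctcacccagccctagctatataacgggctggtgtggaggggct
F3: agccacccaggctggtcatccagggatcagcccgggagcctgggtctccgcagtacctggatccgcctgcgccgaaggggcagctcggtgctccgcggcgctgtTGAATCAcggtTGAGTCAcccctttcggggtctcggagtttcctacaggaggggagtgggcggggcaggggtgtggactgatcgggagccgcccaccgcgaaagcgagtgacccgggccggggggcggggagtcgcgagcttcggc
Sprr1a: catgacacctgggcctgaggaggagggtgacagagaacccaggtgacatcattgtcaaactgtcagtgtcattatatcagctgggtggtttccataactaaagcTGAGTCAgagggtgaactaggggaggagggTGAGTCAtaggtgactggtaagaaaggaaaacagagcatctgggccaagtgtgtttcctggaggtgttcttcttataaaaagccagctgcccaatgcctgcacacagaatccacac
Each window held 2 copies, at 210 and 123 bases before the start in Ankrd1, 146 and 135 in F3, and 146 and 116 in Sprr1a. The F3 and Sprr1a windows held no TEAD site and the Ankrd1 window no AP-1 site. Of all 32851 promoters, 6.75% held the AP-1 letters and 0.338% held them 2 or more times, and for TEAD the shares were 12.6 and 1.02%. Of 20 genes looked up for any of the 3 motifs, 13 were in the table, and Lcn2, Chil4, Itln1, Wfdc18 and Cftr held none of them.

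**Figure D5:**
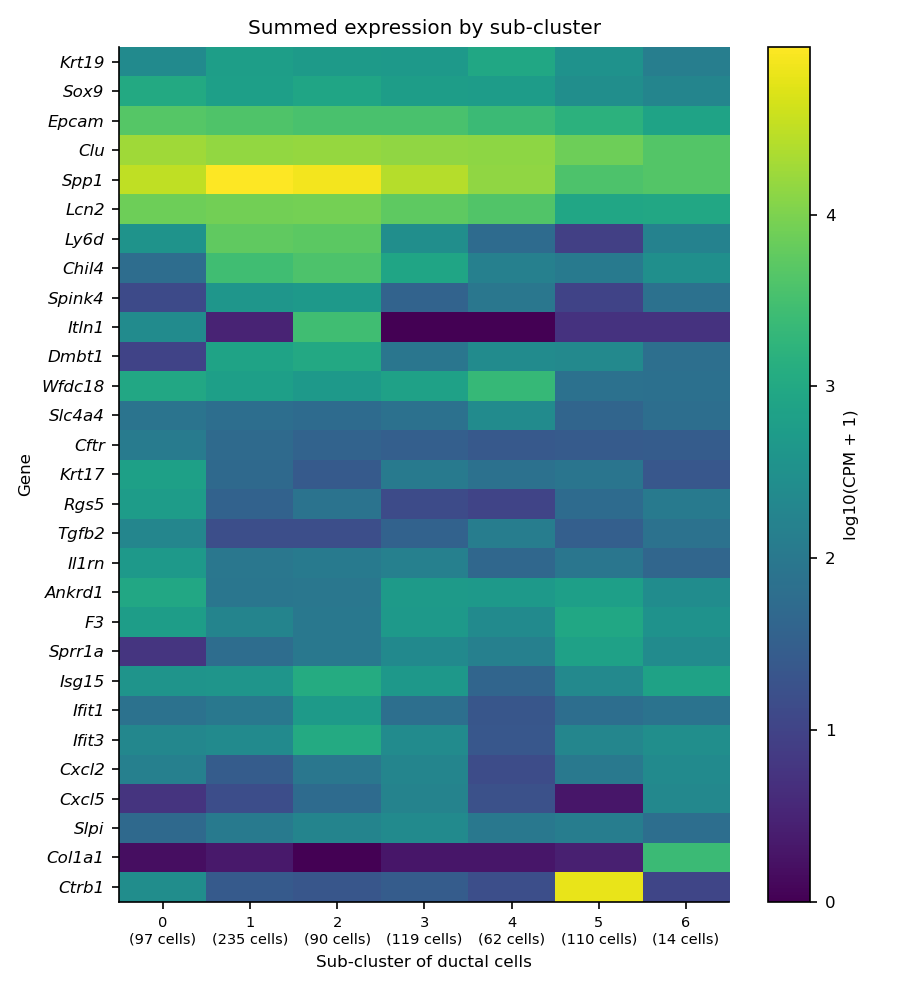
Rows are genes, columns the 7 sub-clusters of ductal cells with their number of cells, and the colour gives log10 of the summed CPM plus 1. Spp1 is brightest in sub-clusters 1 and 2 together with Ly6d and Chil4, Ankrd1 and F3 are brightest in 0 and 5, Ifit3 is brightest in 2, and Col1a1 and Ctrb1 stand out in 6 and 5.

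Across single ductal cells, genes ranked with Lcn2 and with Chil4 formed different sets. Among 7653 genes detected in at least 20% of the ductal cells of both libraries, the rank correlation with Lcn2 was highest for Spp1 (0.61 across 478 cells of library 1 and 0.73 across 229 cells of library 3), Lbp, the gene of the lipopolysaccharide-binding protein (0.63 and 0.63), Cp (0.69 and 0.56) and the complement gene C3 (0.58 and 0.66). Cd14, the lipopolysaccharide co-receptor gene (0.65 and 0.54), Cfb (0.50 and 0.69), Tmem176a, Tmem176b, 1110008P14Rik and the ferritin gene Fth1 completed the first 10. For Chil4 the first genes were Spink4, a trypsin inhibitor family gene of secretory epithelium (0.73 and 0.38), Ly6d (0.60 and 0.42), Tdh (0.54 and 0.46) and Pglyrp1 (0.55 and 0.43), followed by Ambp, Dmbt1, Ly6a, Tmprss4, Tmem45a and Itm2b. The correlation with total UMIs per cell was -0.07 and -0.13 for Lcn2 and 0.20 and 0.10 for Chil4. These values describe cells that share library, depth and free RNA, and they carry no test.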

How the data were processed

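Single-cell RNA libraries of dispersed islets were prepared by the 10x protocol, per the labels. The deposited matrix holds UMI counts per gene and barcode (32285 genes, 19987 barcodes, 66890401 entries, all whole numbers), pooled over 4 libraries. The authors made the counts with Cell Ranger 6.1.2 on the build mm10, per the submitters' processing notes; the sources used here do not describe how multi-mapped reads and free RNA were treated.

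Ductal members and gene lists were chosen with earlier results of these data known. CPM values were computed here from the summed UMIs of a class in a library. Ratios used libraries with at least 50 ductal cells, a pseudocount of 10 CPM, genes with at least 10 UMIs in ductal cells or in the other classes, and other classes with at least 5 cells. Other classes were endocrine (hormone genes at 10% of UMIs or more), acinar (acinar markers at 10% or more), endothelial (Pecam1 and Cdh5), fibroblast (Col1a1 and Col3a1, each at 2 UMIs or more) and leukocyte (Ptprc) cells. A gene was called at 4-fold against other classes and at 2-fold between libraries. Named were the 25 genes with the highest smaller ratio at 100 CPM or more, list members with the largest ratios, the genes furthest apart between libraries, leading sub-cluster genes, and the 10 best rank correlates; Xbp1, Chil3, Neurog3 and other genes named for context were added after values were seen. Intervals are exact at the 95% level. Sub-clusters used scanpy 1.11.5 and igraph 0.11.9 (Python 3.11.15, numpy 2.4.6, scipy 1.17.1, pandas 2.3.3). A simulation with 2170 genes tested the ratios: 100% of raised and 82% of lowered genes and 0 unchanged genes were called. In it the other classes shared a single profile and had equal numbers of cells, and all genes were above a minimum level. It therefore checks the calculation and cannot show how often genes are called with unlike classes, few acinar cells or genes held by few cells. No doublet caller was run, so doublets remain. Alternatives covered the cell filter, the rule's thresholds, the reference, the total, the normalization, the pseudocount, the low-count filter, each library, and doubtful cells, of which the subsets with acinar or collagen genes were defined after seeing the data.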

Additional observations from a re-analysis of the deposited data

How the results depend on the processing

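No paired analysis was possible because libraries carry no sample label and no test was run. Of 743 values under alternatives, 556 stayed within their limits (counts within 1.5 times, ratios within the spread of 2 libraries, shares within their interval), 174 moved further and 13 changed sign; the cause was not tested. All 13 were list medians. None of the 25 leading genes changed direction, but they were picked for the largest ratios, so a change of sign was hardly possible. Of their 350 values under alternatives, 81 moved beyond their limits. The reported medians of these lists were near 0 except for the cilium list, at 0.27. A pseudocount of 1 CPM gave 421 genes higher and 1155 lower in ductal cells, 88 list members higher and 53 lower, against 56 and 23, and 163 and 147 genes higher and lower in library 1 than in library 3. Leaving out library 1 or library 3 gave 26 to 35 list members lower. The mean of each cell's CPM left 5 genes lower in library 1. Without acinar-rich cells 20 genes were higher in library 1, and without cells meeting other classes' criteria 8 were higher and 4 lower. Krt19 at 3 UMIs or more gave ductal shares of 11.6% in library 1 and 5.70% in library 3, and Krt19 at 1 UMI gave 15.0 and 7.84%. Finer resolution gave 13 sub-clusters. List medians that changed sign were, for the unfolded protein response, -0.037 under the stricter cell filter, -0.17 against all other cells pooled and -0.045 with hormone genes left out of totals; for NF-kB, -0.0054 under the stricter filter; for interferon genes, 0.0031 without the 6% of cells with most UMIs, 0.55 against pooled cells, 0.00030 without acinar-rich cells and 0.0012 without cells of other criteria; for cilium genes, -0.015 against pooled cells; and for pancreas transcription factors, -0.27 against pooled cells, -0.00039 with no low-count filter, -0.018 without acinar-rich cells and -0.0045 without cells of other criteria. Depth limits libraries 2 and 4, where 3 UMIs correspond to 11.9 and 23.6 CPM.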

Other observations

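Summed levels of further gene lists differed among the ductal sub-clusters, and are given as descriptions. Immediate early genes summed to 21327 and 20989 CPM in sub-clusters 1 and 2, and to 5196 and 5649 CPM in sub-clusters 5 and 6. Genes of bicarbonate and fluid secretion summed to 3806 and 3537 CPM in sub-clusters 1 and 2, and to 860.3 and 868 CPM in 5 and 6. Xbp1 had 387 and 445 CPM in sub-clusters 1 and 2, and 70.3 CPM in sub-cluster 5. These values of sub-cluster 5 include the acinar-rich cells, whose digestive enzyme RNA lowers the CPM of other genes. Without those cells Xbp1 had 75.7 CPM there, Fos 416 CPM in place of 284 CPM and Cftr 42.0 CPM in place of 25.9 CPM. The list sums were not computed without them. Nupr1, a stress-induced chromatin protein gene, had 3652, 542, 519 and 897 CPM in ductal cells of libraries 1 to 4, and 580.1 CPM in library 1 without the acinar-rich cells.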
